A study of Rattus norvegicus with 9 samples.

Results

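The muscle miRNAs rno-miR-1b, rno-miR-1-3p, rno-miR-133a-3p, rno-miR-133b-3p, rno-miR-206-3p and rno-miR-499-5p were followed through untouched and transplanted rat corneas. The prefix, which stands for rat, is left out below. They were chosen by name, and all 6 names were found among the 765 mature miRNAs listed. Small RNA was sequenced from corneas of rats labelled Wistar and 6 weeks of age, in 3 libraries of normal cornea, 3 of isograft cornea and 3 of allograft cornea. In an isograft, by the meaning of the word, donor and recipient are genetically matched, and in an allograft they differ. All 9 libraries carry the same strain label. The sources used here do not give the donor strain, the time after surgery, the state of the grafts or how many animals stand behind a library. Each library is called by its group and its title number (12, 34 or 56). Since separate animals are not stated, the p-values reflect the spread between these samples alone, which may be technical.

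These miRNAs are known together as myomiRs, because heart and skeletal muscle make them in large amounts. miR-1 and miR-133a come from shared precursor transcripts, miR-206 and miR-133b from another such transcript found mostly in skeletal muscle, and miR-499 from an intron of the slow myosin gene Myh7b. miR-1 and miR-206 promote muscle differentiation, miR-133 holds back part of that program, and miR-499 favours slow fibres. The cornea holds no striated muscle, whereas the eye muscles and the heart do.

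The mature sequences, from RefSeq for the rat assembly GRCr8, are shown because they set which members can bind the same targets and which can share reads. Capitals mark the seed, bases 2 to 8 from the 5′ end, through which a miRNA recognises its targets.
miR-1b: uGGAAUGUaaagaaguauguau
miR-1-3p: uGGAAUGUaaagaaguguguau
miR-206-3p: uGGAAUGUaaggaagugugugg
miR-133a-3p: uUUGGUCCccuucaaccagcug
miR-133b-3p: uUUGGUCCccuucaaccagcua
miR-499-5p: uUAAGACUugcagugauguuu
miR-208a-3p: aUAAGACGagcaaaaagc
miR-208b-3p: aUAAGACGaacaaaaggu
The first 3 sequences share 1 seed and miR-133a-3p and miR-133b-3p share another, and no other listed miRNA with a RefSeq sequence has either. miR-499-5p had a seed of its own, with 6 of 7 bases in common with miR-208a-3p and miR-208b-3p, the other miRNAs made from myosin gene introns.

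Outside the seed, close relatives differ by few bases. The next lines show miR-1b and miR-1-3p again, with the base that differs in capitals.
miR-1b: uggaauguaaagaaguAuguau
miR-1-3p: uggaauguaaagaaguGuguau
The only difference between this pair is A17G, counted from the 5′ end with the base of miR-1b first. miR-1b and miR-206-3p differ at 4 positions, A11G, A17G, A21G and U22G. miR-133a-3p and miR-133b-3p differ only in their last base, G22A. The sources used here do not say how a read that matches more than 1 of them was assigned, so the split within each pair is uncertain.

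In the RefSeq gene table of GRCr8, Mir1b lies on chromosome 3 between unnamed long non-coding RNA genes, with no gene around it. Mir1 and Mir133a1 lie together inside Mib1 on chromosome 18, Mir206 and Mir133b lie next to each other inside 1 long non-coding RNA gene on chromosome 9, and Mir499a lies inside Myh7b. Mir133a1 is the only miR-133a gene in that table, and another copy, near Mir1b or elsewhere, was not analysed here.

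Values are RPM, reads scaled so that every library has the same total, and that total also counts reads outside the listed miRNAs. The totals were 11001459 to 12153889 reads, so that 3 reads correspond to between 0.247 and 0.273 RPM. Of the 765 miRNAs, 281 reached 5 RPM in at least 3 libraries and were tested with limma on log2(RPM + 1), and an adjusted p (Benjamini-Hochberg over those 281) under 0.05 was the threshold. Calls were 60 in isografts against normal corneas (47 higher, 13 lower), 65 higher and 68 lower in allografts against normal corneas, and 97 in allografts against isografts (38 higher, 59 lower). The split depends on scaling: it was 67 to 47 and 38 to 22 for isografts after scaling by the median of ratios and after leaving out miR-184, the dominant corneal miRNA. For allografts against normal corneas it was 51 to 104 without miR-184 and 142 to 44 on the sum of the listed miRNAs, and for allografts against isografts it was 86 to 55 on that sum. Isograft 12 and allograft 34 stood apart from their groups, and results of the tested muscle miRNAs that rest on them are given with and without them. For other named miRNAs, such as miR-451-5p, no fit without them is given.

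Of the 6 muscle miRNAs, 3 could be tested. miR-1b and miR-499-5p were above 5 RPM in all 9 libraries. miR-133a-3p passed through the 3 normal libraries and allograft 34 alone, so that a fall in isografts was favoured by the filter. The remaining 3 members had reads but were too low, and are given as values with no test.

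In normal corneas miR-1b stood far above the rest. Its rank among the listed miRNAs was 70 to 79, and it made up 79.3% to 84.5% of the summed RPM of the 6 members. The order of the mean levels in normal corneas was miR-1b at 230 RPM ± 40.3, miR-499-5p at 42.6 ± 5.73, miR-133a-3p at 7.51 ± 1.32, miR-206-3p at 1.57 ± 0.367, miR-1-3p at 0.666 ± 0.189 and miR-133b-3p at 0.242 ± 0.189 (SD, n = 3 each). Each member stood above its neighbour in that order without overlap of the 3 libraries, except that the lowest library of miR-1-3p and the highest of miR-133b-3p both held 5 reads, at 0.454 RPM. All are mature miRNAs of 21 or 22 bases, and how well each sequence is captured in a library was not tested. miR-1b was at 26.2 to 35.9 times the RPM of miR-133a-3p, with which muscle makes the miR-1 family in shared transcripts. The gene or genes behind the reads of miR-133a-3p were not analysed here, so this is a ratio of mature sequences and not of products of a known shared transcript.

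**Figure D1:**
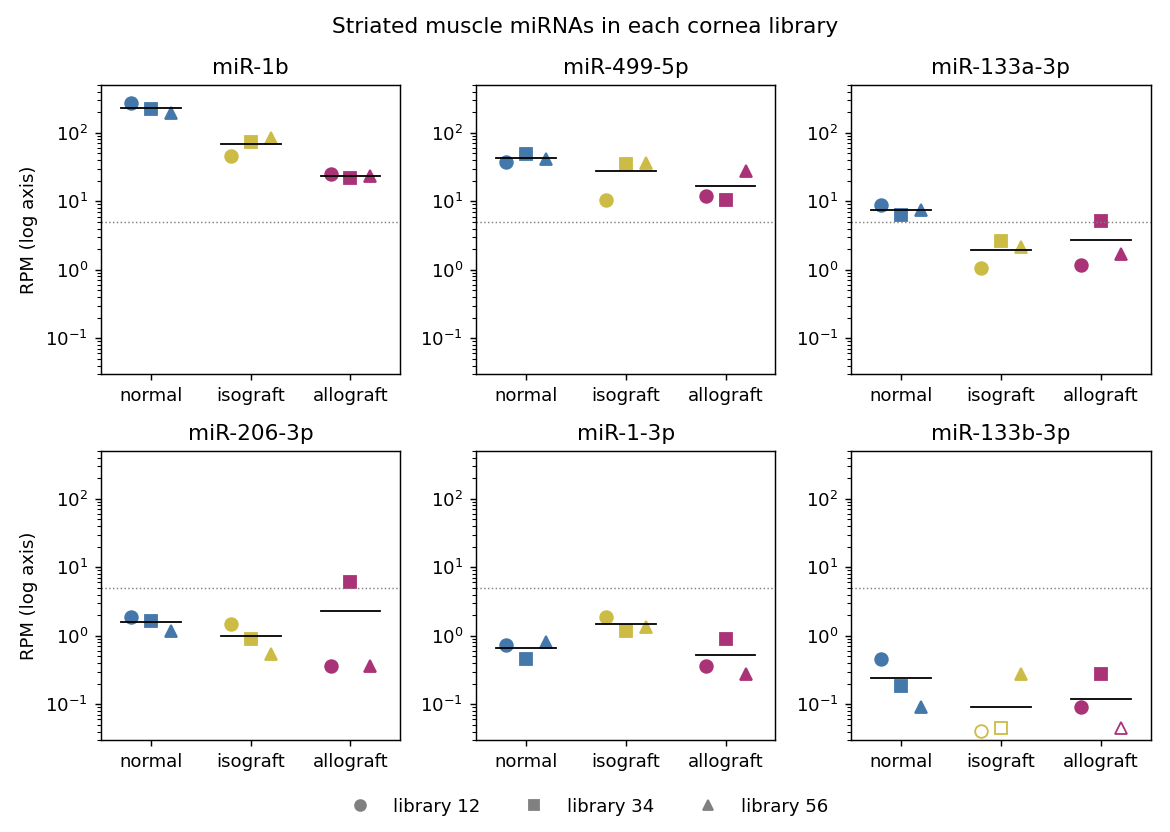
RPM of the 6 muscle miRNAs in each library, on a log axis, by group; marker shapes give the number in the library title, black bars the group mean, the dotted line the 5 RPM filter and open markers libraries with 0 reads (drawn below 1 read). miR-1b steps down from normal corneas to isografts to allografts with no overlap, and allograft 34 stands above the other allografts for miR-133a-3p and miR-206-3p.

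miR-1b, which held nearly all reads of the pair miR-1b and miR-1-3p, fell in isografts and fell further in allografts. It was at 273, 225 and 193 RPM in normal 12, 34 and 56, at 45.2, 73.3 and 85.3 RPM in isograft 12, 34 and 56, and at 24.8, 22.2 and 23.4 RPM in allograft 12, 34 and 56. The 3 groups did not overlap, and the allografts lay close together. Among tested miRNAs, 11% were lower in isografts than in normal corneas with no overlap, 30.2% in allografts than in normal corneas and 22.4% in allografts than in isografts. The mean in normal corneas was 3.39 times that in isografts, and 9.82 times that in allografts.

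On the log2(RPM + 1) scale, miR-1b fell by 1.78 in isografts (SE 0.38, limma adjusted p = 0.000539, n = 3 per group). That was the third lowest change of the 281 tested, of which 4.63% were called lower. Against normal corneas it fell by 3.23 in allografts (SE 0.38, limma adjusted p = 3.65e-08), the second lowest change, where 24.2% were called lower. Between the graft types miR-1b fell by 1.45 from isografts to allografts (SE 0.38, limma adjusted p = 0.00492), with 21% of all tested called lower. These calls also held without isograft 12 and allograft 34, at -1.52, -3.19 and -1.68. In bulk tissue, fewer cells of a type and less RNA per cell cannot be told apart.

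miR-1-3p, which differs from miR-1b by a single base, was higher in the isograft libraries than in the normal ones. It was at 0.726, 0.454 and 0.818 RPM in normal 12, 34 and 56, at 1.89, 1.18 and 1.36 RPM in isograft 12, 34 and 56, and at 0.364, 0.909 and 0.273 RPM in allograft 12, 34 and 56. Every isograft lay above every normal library and above every allograft, while allografts and normal corneas overlapped. From isografts to allografts both sequences were lower, the isograft mean being 2.87 times the allograft mean for miR-1-3p and 2.90 times for miR-1b. Among tested miRNAs, 22.4% had isografts above normal corneas with no overlap. These values rest on 5 to 9 reads in the normal libraries, 13 to 23 in the isograft libraries and 3 to 10 in the allograft libraries.

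As a share of the reads of both sequences, miR-1-3p took 0.265%, 0.201% and 0.422% in normal 12, 34 and 56. The share was 4.02%, 1.59% and 1.57% in isograft 12, 34 and 56, and 1.44%, 3.94% and 1.15% in allograft 12, 34 and 56. All 6 graft libraries were above the 3 normal ones. In allografts this went with less miR-1b, as miR-1-3p was at 0.515 RPM on average against 0.666 RPM in normal corneas, with overlap. The 95% exact binomial intervals of the normal libraries reached at most 0.800%, and those of the isografts began at 0.848% or higher. The intervals of allograft 12 and allograft 56 began at 0.395% and 0.239%, within the range of the normal ones. Such intervals hold the counting error alone, because PCR copies were not marked by molecular identifiers. Whether the reads of miR-1-3p are its own was not tested.

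miR-133a-3p, the partner of the miR-1 family in heart and skeletal muscle transcripts, was lower in both graft types than in normal corneas. It was at 8.90, 6.27 and 7.36 RPM in normal 12, 34 and 56, at 1.07, 2.64 and 2.18 RPM in isograft 12, 34 and 56, and at 1.18, 5.18 and 1.73 RPM in allograft 12, 34 and 56. No graft library reached the lowest normal one, which also held for 11% of tested miRNAs in isografts and 30.2% in allografts. Allograft 34 held 57 reads, against 13 and 19 in the other two allografts. Since it was tested only because of its level in the normal libraries and allograft 34, its p-values among the 281 favour a fall and are given as a description: the log2 fold change was -1.55 in isografts (SE 0.37, limma adjusted p = 0.0019) and -1.34 in allografts (SE 0.37, limma adjusted p = 0.00332). With no filter on low values, where its level did not decide whether it was tested, the log2 fold changes were the same and the adjusted p was 0.0215 and 0.0193 (limma, SE 0.41 each).

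In allografts it depended on the method whether the threshold was passed. It was not passed with edgeR on the recovered reads (log2 fold change -1.26, adjusted p = 0.0563) and on the sum of the listed miRNAs (-0.77, limma adjusted p = 0.172). Between allografts and isografts its log2 difference was 0.21 (SE 0.37, 95% interval -0.55 to 0.96, limma adjusted p = 0.688). Without allograft 34 that difference was -0.24, and the log2 fold change against normal corneas was -1.79.

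miR-499-5p, the slow fibre miRNA from Myh7b, changed least clearly of the 3. It was at 38.0, 49.1 and 40.8 RPM in normal 12, 34 and 56, at 10.6, 34.7 and 36.5 RPM in isograft 12, 34 and 56, and at 12.1, 10.5 and 27.3 RPM in allograft 12, 34 and 56. Both graft types lay below the normal corneas with no overlap, as did 11% of tested miRNAs in isografts and 30.2% in allografts. Isograft 34 and 56 were only a little lower. In isografts its log2 fold change was -0.80 (SE 0.45, limma adjusted p = 0.249), and -0.25 without isograft 12. DESeq2 and edgeR on the recovered reads, and limma after scaling by the median of ratios, did call it there (adjusted p = 0.00306, 0.026 and 0.0159).

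In allografts miR-499-5p fell by 1.42 (SE 0.45, limma adjusted p = 0.0104). Without allograft 34 its log2 fold change was -1.17 (adjusted p = 0.0792), and on the sum of the listed miRNAs it was -0.74 (adjusted p = 0.0763). Against isografts it was at -0.62 (SE 0.45, limma adjusted p = 0.296), and at -1.18 without isograft 12 (adjusted p = 0.00567). The direction of its change against normal corneas was downward in every setting tried.

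**Figure D2:**
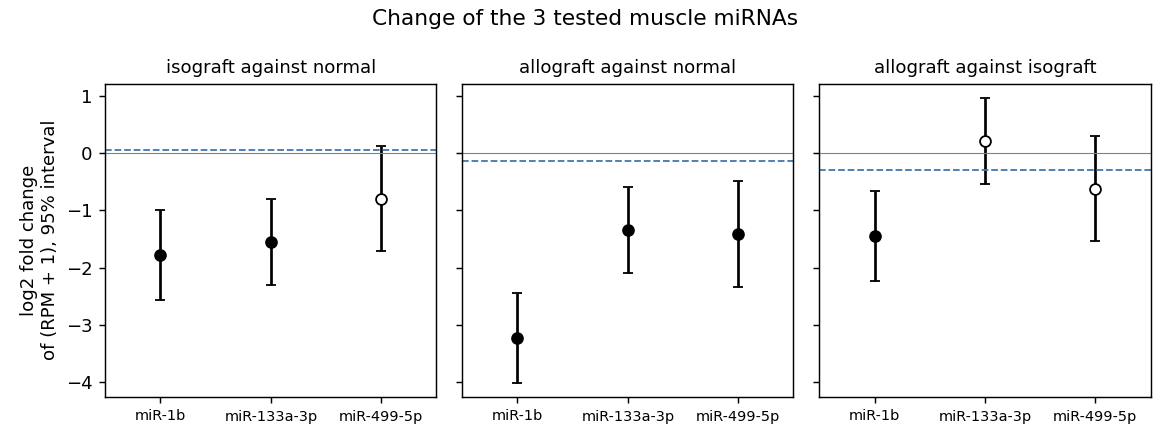
Log2 fold changes of (RPM + 1) for the 3 tested muscle miRNAs in the 3 comparisons, with 95% intervals; filled points passed the adjusted threshold, open points did not, and the dashed blue line is the median of all 281 miRNAs. miR-1b lies below that line in each comparison. Against normal corneas miR-133a-3p passed in both graft types, where the filter favoured a fall, and miR-499-5p passed in allografts but not in isografts. Neither of them passed between the graft types.

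Scaling moved all miRNAs together, so changes are also given relative to the median of all tested. Such relative changes stay nearly fixed under any of these scalings by construction, so their narrow ranges are no test of it. That median was 0.05 for isografts against normal corneas, -0.14 for allografts against normal corneas and -0.29 for allografts against isografts. It moved to between -0.22 and 0.33, between -0.56 and 0.54, and between -0.44 and 0.10 under 3 other scalings. Relative to it, miR-1b stood at -1.80 to -1.85 in isografts, at -3.07 to -3.10 in allografts, and at -1.15 to -1.16 between them over the 4 scalings. In the same way miR-133a-3p stood at -1.60 to -1.63 in isografts and at -1.18 to -1.31 in allografts, and miR-499-5p at -0.83 to -0.86 and at -1.28 to -1.29. The 2 comparisons with normal corneas share the normal libraries and are not independent of each other.

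miR-206-3p, a skeletal muscle miRNA with the seed of miR-1, was low in all libraries but 1. It was at 1.91, 1.64 and 1.18 RPM in normal 12, 34 and 56, at 1.48, 0.909 and 0.545 RPM in isograft 12, 34 and 56, and at 0.364, 6.09 and 0.364 RPM in allograft 12, 34 and 56. Allograft 34 was the highest of all 9 libraries, with 67 reads, while the other two allografts were the lowest, with 4 reads each. The 95% exact Poisson interval was 4.72 to 7.73 RPM in allograft 34 and 0.0990 to 0.931 RPM in each of the others. The mean of the allografts, 2.27 RPM ± 3.31, therefore describes none of them.

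miR-133b-3p, which lies next to miR-206 in the genome, was near the limit of detection. It had 5, 2 and 1 reads in normal 12, 34 and 56, 0, 0 and 3 reads in the isografts, and 1, 3 and 0 reads in the allografts. No library exceeded 0.454 RPM, and the groups overlapped. A difference between groups was not detectable at this depth. Its share of the reads of miR-133a-3p and miR-133b-3p was 4.85%, 2.82% and 1.22% in the normal libraries, and 5.0% in allograft 34 (95% exact binomial interval 1.04 to 13.9).

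Allograft 34 thus held more miR-206-3p and miR-133a-3p than the other allografts, but not more miR-1b or miR-499-5p, for which it was the lowest of the 9 libraries. The same library was high in red blood cell miRNAs: miR-486, found in red blood cells and also in muscle, was at 946 RPM against 15.3 and 13.8 RPM in allograft 12 and 56. miR-451-5p, the main red blood cell miRNA, was at 120 RPM against 3.82 and 3.27 RPM. Summed over the 4 red blood cell markers, the groups ranged from 82.4 to 343 RPM over the normal libraries, from 14.0 to 181 RPM over the isograft libraries and from 18.5 to 1068 RPM over the allograft libraries. Normal 12, 34 and 56 had 121, 31.9 and 141 RPM of miR-451-5p, and isograft 12, 34 and 56 had 69.5, 3.00 and 5.91 RPM. It fell by 2.73 on the log2 scale in isografts (SE 0.88, limma adjusted p = 0.0255), the lowest change of all tested, and fell by 2.61 in allografts (SE 0.88, limma adjusted p = 0.0159), although isograft 12 and allograft 34 lay within the range of the normal libraries. miR-144-3p and miR-144-5p, also among the red blood cell markers, were too low to test, and their means went the other way. These means were 0.091, 0.261 and 0.485 RPM, and 0.061, 0.485 and 0.848 RPM, in normal corneas, isografts and allografts. In allograft 34 miR-144-3p and miR-144-5p had 10 and 11 reads, against 1 and 6 in allograft 12 and 5 and 11 in allograft 56. miR-486 and miR-451-5p were also high in normal 12 and normal 56, where miR-206-3p was at 1.91 and 1.18 RPM. The part of blood or of muscle in these values was not tested.

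**Figure D3:**
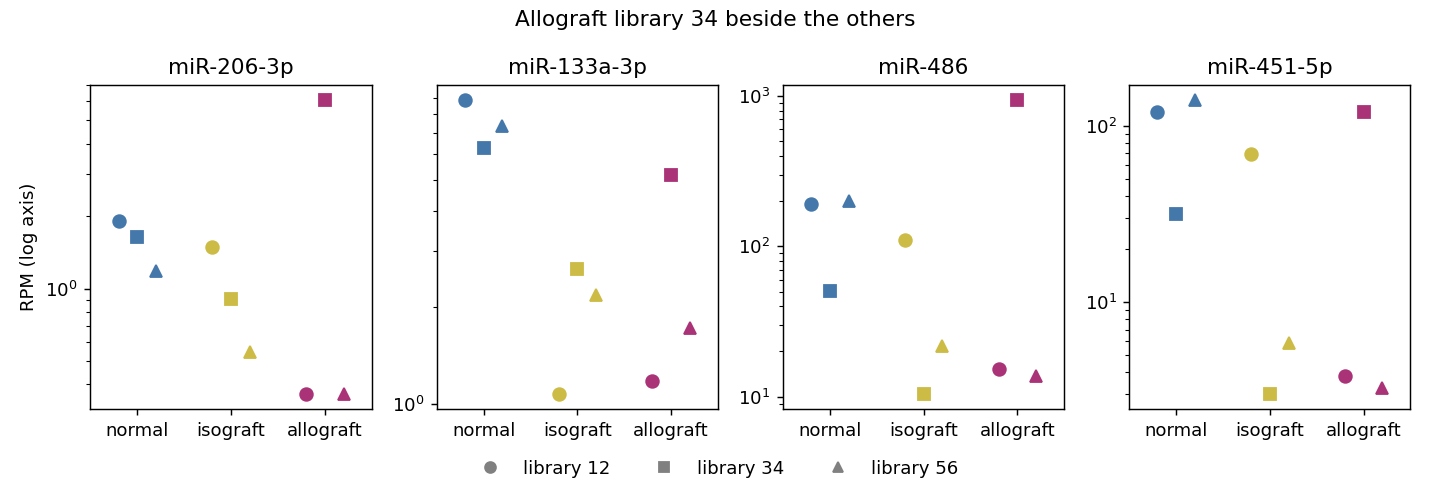
RPM of miR-206-3p, miR-133a-3p, miR-486 and miR-451-5p in each library, on log axes with a range of their own, by group and by number in the title. In all 4 panels allograft 34 lies above allograft 12 and 56, and for miR-206-3p and miR-486 above all other libraries, at 6.09 and 946 RPM.

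The proportion between members was compared within libraries, where it does not depend on how a library was scaled except through the pseudocount. The plain ratio of miR-1b to miR-133a-3p was 30.7, 35.9 and 26.2 in normal 12, 34 and 56, 42.2, 27.8 and 39.1 in isograft 12, 34 and 56, and 21.0, 4.28 and 13.5 in allograft 12, 34 and 56. All 3 allografts were below all 6 other libraries, and isografts and normal corneas overlapped. As log2 ratios of (RPM + 1) the mean was 4.76 ± 0.21 over the normal libraries, 4.53 ± 0.21 over the isograft libraries and 2.88 ± 0.86 over the allograft libraries (SD, n = 3 each). In that log2 ratio the 3 groups differed (exact permutation test, two-sided p = 0.00714, adjusted p = 0.0286 over 4 ratios). The level of miR-133a-3p was close to the pseudocount in the isografts (1.07 to 2.64 RPM) and in allograft 12 and 56 (1.18 and 1.73 RPM). This lowers the log2 ratio most where miR-133a-3p is lowest. In the plain ratios isograft 12 and 56 stood above all normal libraries, and isograft 34 lay among them.

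Pairs of groups of 3 cannot give a p below 0.1 in this test, and allografts reached that value against both normal corneas and isografts. Without allograft 34 the difference between allografts and normal corneas shrank from -1.89 to -1.40, with the same adjusted p = 0.0286 in the exact permutation test. The adjusted p was above the threshold with a pseudocount of 0.5 RPM (0.114) and without normal 12 (0.114), normal 34 (0.129), isograft 12 (0.1) or isograft 56 (0.0714), and at it without isograft 34 (0.05).

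The other 3 ratios did not pass. For miR-133a-3p to miR-133b-3p the mean log2 ratios were 2.78, 1.41 and 1.58 in normal corneas, isografts and allografts (exact permutation p = 0.0357, adjusted p = 0.0714). For miR-206-3p to miR-133b-3p they were 1.05, 0.84 and 1.08 (exact permutation p = 0.954). For miR-499-5p to miR-133a-3p they were 2.36, 3.12 and 2.29 (exact permutation p = 0.475). In the last 2, allograft 34 lay far from the other allografts, at 2.48 against 0.32 and 0.45, and at 0.90 against 2.59 and 3.37. In both ratios to miR-133b-3p, miR-133b-3p itself was below the pseudocount of 1 RPM in every library (at most 0.454 RPM). Those ratios therefore follow mainly the level of the first miRNA and say little on the proportion. For miR-133a-3p that level was high in normal corneas, which the filter favoured.

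**Figure D4:**
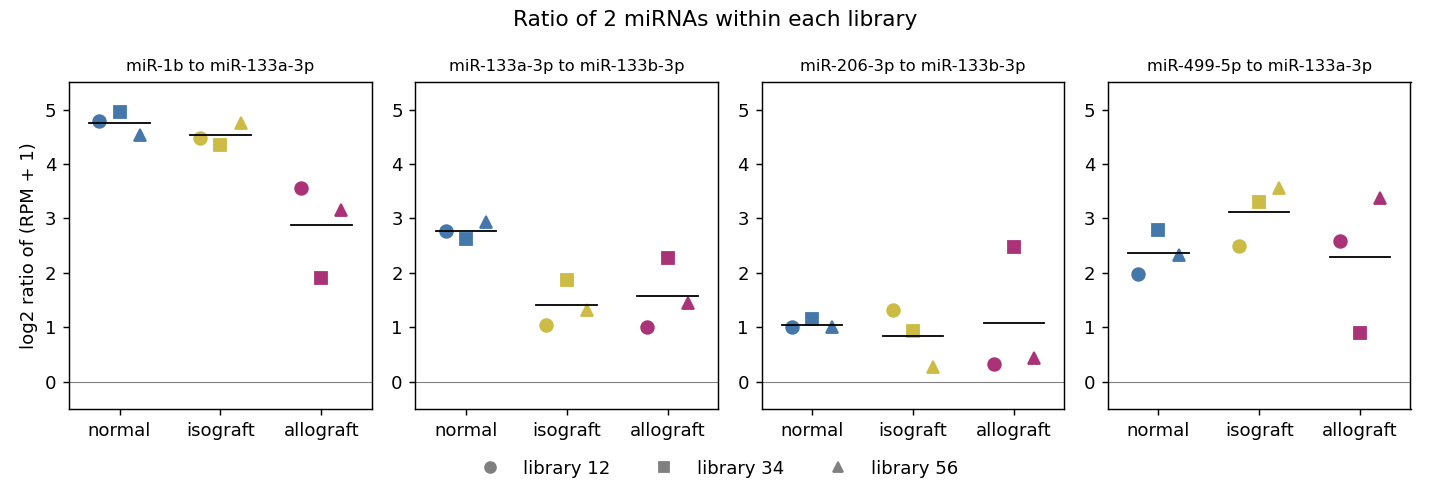
Log2 ratio of (RPM + 1) of 2 muscle miRNAs within each library, by group; markers give the number in the library title and black bars the group mean. For miR-1b to miR-133a-3p the allografts, at 1.91 to 3.56, lie below all normal corneas and isografts, at 4.35 to 4.96, and in the right-hand panels allograft 34 lies apart from its group.

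Because miR-1b dominates, the summed level of the 6 members followed it. The sum was 243 to 323 RPM in the normal libraries, 60.2 to 126 RPM in the isograft libraries and 38.9 to 53.0 RPM in the allograft libraries. The share of miR-1b in the sum was 65.0% to 75.0% in isografts and 44.1% to 63.8% in allografts.

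The other miRNAs of striated muscle were checked from a list of 10, passenger arms and relatives except for miR-133c: miR-1-5p, miR-133a-5p, miR-133b-5p, miR-133c, miR-206-5p, miR-499-3p and both arms of miR-208a and miR-208b. The sequence of miR-133c is the reverse complement of a part of miR-133a-3p, with another seed, so it shares the name alone. None of the 10 could be tested, and 9 had 0 reads in all 9 libraries, as did 159 of all 765 listed miRNAs. This allows up to 0.247 to 0.273 RPM in each at a limit of 3 reads (0.304 to 0.335 RPM by the exact Poisson interval). The exception was miR-133a-5p, the passenger arm of miR-133a-3p, with 2 reads in the isografts and 1 in the allografts. miR-208a and miR-208b, the miRNAs of the cardiac and slow myosin genes, were among those at 0. The labels give the tissue as cornea in every library, and whether any muscle was carried in a sample was not tested. The corneal epithelial miRNA miR-184 was at 288700 RPM ± 65850 in the normal libraries, 136820 ± 6200 in the isograft libraries and 41540 ± 15230 in the allograft libraries.

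miRNAs that are enriched in muscle but also made widely were checked as well. Of miR-486, miR-378a-3p, miR-378a-5p and miR-378b, all 4 were tested and 0 passed in any of the 3 comparisons with limma or edgeR. DESeq2 called 0 of 3 and gave no adjusted p for miR-486. Of all tested, limma called 21.4% in isografts against normal corneas, 47.3% in allografts against normal corneas and 34.5% between the graft types, edgeR 40.6%, 68.7% and 58%, and DESeq2 42.7%, 69.9% and 61.3%. At an unadjusted p under 0.05 (limma) 1 passed, miR-486 in isografts against normal corneas. Their median log2 fold change was -0.27 in isografts, where the median of all tested was 0.05, and -0.27 in allografts, where it was -0.14. miR-378a-3p, made from an intron of the metabolic regulator gene Ppargc1b and abundant in muscle and fat, had 3889 RPM ± 845.7, 3539 ± 1060 and 3281 ± 824.7 in the 3 groups. Its log2 fold changes were -0.16 (95% interval -0.87 to 0.54) and -0.26 (-0.96 to 0.45) against normal corneas.

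Smooth muscle miRNAs moved the other way. All 4 arms of miR-143 and miR-145, made in smooth muscle and fibroblasts, rose in isografts, with a median of 3.17, and all 4 rose in allografts, with a median of 2.22, where 16.7% and 23.1% of all tested were called higher. For miR-143-5p, which reached 5 RPM in only 1 normal library, a rise was favoured by the filter. miR-143-3p was at 1371 RPM ± 702.3 in the normal libraries, 11688 ± 3597 in the isograft libraries and 7130 ± 1812 in the allograft libraries. Between allografts and isografts only miR-145-5p of the 4 passed, at -1.35 (SE 0.41, limma adjusted p = 0.0121).

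The miRNAs with levels most like those of miR-1b were sought over the 9 libraries by Pearson correlation of log2(RPM + 1), as a description: the 9 points fall into 3 groups and share their library totals. The 5 closest were miR-135b-5p (r = 0.961), miR-338-5p (0.933), miR-200b-3p (0.929), miR-184 (0.92) and miR-204-5p (0.915). Epithelium is rich in miR-200b-3p and miR-184, while the last is also known from pigment epithelium and lens. miR-499-5p stood at place 41 (r = 0.792) and miR-133a-3p at place 64 (r = 0.722) by the same measure. For miR-338-5p, which reached 5 RPM in the normal libraries alone, a fall in grafts was favoured by the filter. miR-135b-5p was at 26.7 RPM ± 9.24 in the normal libraries, 8.95 ± 4.03 in the isograft libraries and 4.54 ± 0.553 in the allograft libraries. miR-184 was higher in normal corneas than in isografts by a factor of 2.11 and than in allografts by 6.95, against 3.39 and 9.82 for miR-1b.

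For miR-133a-3p the likeness was weaker. The closest were miR-381-3p (r = 0.756), miR-138-5p (0.744), miR-135b-5p (0.728), miR-1b (0.722) and miR-338-5p (0.713), with miR-499-5p at place 21 (r = 0.546). Of these, miR-381-3p, miR-138-5p and miR-338-5p reached 5 RPM in the normal libraries alone. Their likeness to miR-133a-3p, which passed mainly through the same libraries, was thus favoured by the filter. miR-138-5p, known from neurons, was at 8.02 RPM ± 1.62 in the normal libraries, 1.80 ± 1.06 in the isograft libraries and 1.73 ± 1.05 in the allograft libraries. miR-381-3p, of the imprinted Dlk1-Dio3 cluster, was at 7.36 RPM ± 2.05, 2.83 ± 1.65 and 2.09 ± 0.328. In allograft 34, where miR-133a-3p was at 5.18 RPM, miR-138-5p was at 0.909 RPM and miR-381-3p at 1.82 RPM, both below the other two allografts.

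**Figure D5:**
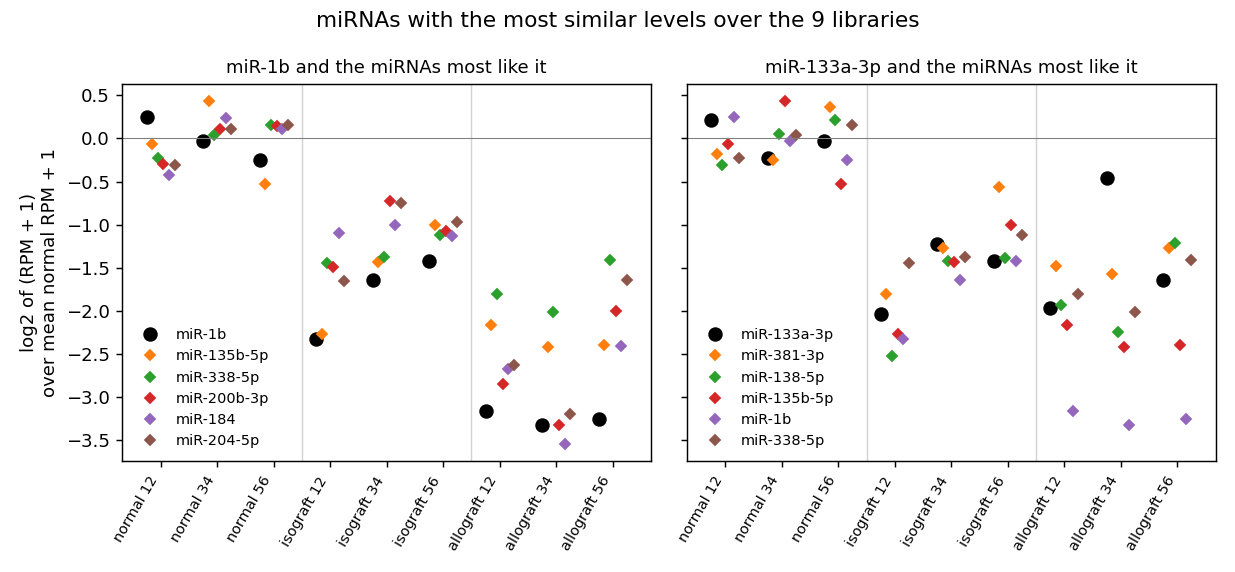
Level of miR-1b (left) and miR-133a-3p (right), black, and of the 5 miRNAs most correlated with each, coloured, in each library as log2 of (RPM + 1) over the mean normal RPM + 1. The companions of miR-1b, chosen for their likeness to it, are lower in grafts than in normal corneas, but isografts and allografts overlap for miR-135b-5p, miR-338-5p and miR-204-5p, and miR-133a-3p in allograft 34 (5.18 RPM) lies above all of its companions.

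Markers of other tissues also differed between the groups. Of the 9 epithelial markers all were tested, and 4 fell in isografts, where 4.63% of all tested were called lower. In allografts 8 of the 9 fell against normal corneas (24.2% of all tested) and 3 of the 9 against isografts (21% of all tested). Their summed level was 272030 to 421730 RPM in the normal libraries, 159480 to 194920 RPM in the isograft libraries and 37454 to 91465 RPM in the allograft libraries, and none was at 0. Most of that sum was miR-184 in every library. miR-204-5p and miR-211-5p, of iris, lens and pigment epithelium, summed to 4859 to 6715, 1935 to 3595 and 663 to 1940 RPM, nearly all of it miR-204-5p. Against normal corneas miR-211-5p was not called in isografts (-0.191, limma adjusted p = 0.823) but was called lower in allografts (-1.635, limma adjusted p = 0.00129). The 5 leukocyte markers moved the opposite way, all 5 higher in each of the 3 comparisons (13.5% of all tested were called higher in allografts against isografts). Their sum was 46.0 to 56.7 RPM in the normal libraries, 156 to 327 RPM in the isograft libraries and 2293 to 3997 RPM in the allograft libraries. Among them miR-142-3p and miR-142-5p reached 5 RPM in no normal library, so that a rise against normal corneas was favoured by the filter. The part of these tissues in the values of miR-1b, miR-133a-3p and miR-499-5p was not tested.

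The sums of other marker lists gave no order like that of miR-1b. The 5 stromal markers summed to 8070 to 9911 RPM in the normal libraries, 15300 to 33580 in the isograft libraries and 10249 to 20138 in the allograft libraries. The 2 endothelial arms of miR-126a summed to 346 to 857, 2095 to 6150 and 2955 to 4874 RPM. The 4 neuronal markers summed to 173 to 244, 143 to 299 and 222 to 322 RPM, with the neuron-specific miR-124-3p at 0.333, 0.118 and 0.182 RPM on average. That sum was mostly miR-128-3p, at 162, 169 and 225 RPM on average. miR-138-5p of the same list was called lower in isografts (-1.76, limma adjusted p = 0.000339) and in allografts (-1.78, limma adjusted p = 0.000177) against normal corneas. It reached 5 RPM in the normal libraries alone, so that a fall was favoured by the filter. miR-9a-5p and miR-128-3p were not called in these comparisons.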

How the data were processed

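The authors deposited RPM values for 765 mature miRNAs in 9 columns, each matched to 1 library by its title (0 columns unmatched). Per the labels' protocols, Trizol was used to extract RNA, and 1 ug per sample entered library preparation with a TruSeq small RNA kit. The submitters' processing notes name bcl2fastq, BWA and rn6; versions, trimming and annotation were not given. RPM moved in fixed steps, so whole reads were recovered: in each library 100% of the values were whole to within 0.1 read.

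The 281 miRNAs that reached 5 RPM in 3 or more libraries were fitted as log2(RPM + 1) over all 9 libraries with limma 3.58.1 (R 4.3.3), with a mean-variance trend and 6 residual degrees of freedom. Fold changes on this scale understate the change of low miRNAs. On the recovered reads, edgeR 4.0.16 called 114 miRNAs between isografts and normal corneas, 193 between allografts and normal corneas and 163 between the graft types. DESeq2 1.42.0 called 119, 195 and 171 in that order. The model was tested on simulated data. Ratios were compared by exact permutation of libraries. The alternatives were other pseudocounts, filters, scalings, variance settings and count models, a block for the title number, and leaving out single libraries. Named were the 6 members, lists of other muscle miRNAs and markers, and the 5 miRNAs most correlated with miR-1b and miR-133a-3p. The members and lists were chosen with earlier results of these data known. The fit without isograft 12 and allograft 34 together was added after seeing the data. Sequences and gene order come from RefSeq for GRCr8, a build other than rn6, so no coordinates are given.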

Additional observations from a re-analysis of the deposited data

How the results depend on the processing

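The log2 fold changes of miR-1b passed the threshold in the same direction in all 3 comparisons under each of 23 alternatives. Of the 201 alternative values of the 9 fold changes of miR-1b, miR-133a-3p and miR-499-5p, 189 kept their direction and their side of the threshold. That count includes values that were not called and stayed so. For miR-133a-3p every alternative but the one with no filter kept the filter that favoured a fall, so its part is a description. The values that changed are given here, and except where fewer miRNAs or samples entered the fit the cause was not tested. miR-499-5p in isografts was called after scaling by the median of ratios (-0.89), with edgeR (-0.87) and with DESeq2 (-0.86). In allografts against normal corneas, rescaling by the summed listed miRNAs left miR-133a-3p at -0.77 and miR-499-5p at -0.74, and edgeR put miR-133a-3p at -1.26, none of them called. Leaving out single libraries gave -1.82 to -1.17 for miR-499-5p in allografts against normal corneas, and -0.24 to 0.51 for miR-133a-3p and -1.18 to -0.33 for miR-499-5p in allografts against isografts. There the direction of miR-133a-3p turned without allograft 34 (-0.24) and without isograft 12 (-0.03), and without both it was at -0.48 and miR-499-5p at -0.93 (called).

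Calls over all miRNAs numbered 30, 63 and 44 with a filter at 50 RPM, which tests fewer miRNAs and not miR-133a-3p or miR-499-5p. For isografts against normal corneas they numbered 114 after scaling by the median of ratios, 122 on the sum of the listed miRNAs, 114 with edgeR and 119 with DESeq2. For allografts against isografts they numbered 169 after scaling by the median of ratios, 163 with edgeR and 171 with DESeq2, and 52 (without allograft 34) to 147 (without isograft 12) with single libraries left out.

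The log2 ratio of miR-1b to miR-133a-3p, allografts minus normal corneas, was -2.30 with a pseudocount of 5 RPM. With a pseudocount of 0.5 RPM it was -1.74 and no longer passed, and without single libraries it was -2.23 to -1.40. For miR-206-3p to miR-133b-3p it was -0.021 with that pseudocount and -0.67 to 0.41 without single libraries, and for miR-499-5p to miR-133a-3p it was 0.067 with that pseudocount, and -0.62 to 0.62. Libraries with the same title number shared only that number: their deviations from the group means correlated at -0.51 to 0.56, above 0.1 in 2 of 9 pairs. With the number as a replicate block the calls were 66, 143 and 112, and no call of miR-1b, miR-133a-3p or miR-499-5p changed. Depth limits miR-1-3p, miR-133b-3p and miR-206-3p, which rest on 0 to 67 reads a library.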
